A study of Homo sapiens with 6 samples.

Results

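ATF4 and 9 genes of its amino acid, serine and stress program were followed in adriamycin-resistant and parental breast cancer cells. The 10 genes are ATF4, DDIT3, TRIB3, SESN2, CHAC1, ASNS, PHGDH, PSAT1, PSPH and SHMT2, found by gene symbol among the 58735 genes of the deposited count table. All 10 were abundant enough to be among the 15242 genes tested. 9 of the 10 were called higher in ADRr cells and 1, PHGDH, was called lower. Over all tested genes, 29.2% were called higher and 29.6% lower. The largest increases were those of TRIB3, at 6.86-fold, and ASNS, at 6.80-fold, whereas ATF4 itself was 1.30-fold higher.

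The study compared the transcriptome of MDA-MB-231 cells with that of an adriamycin (ADR) resistant derivative by poly(A) RNA sequencing, to learn how resistance changes gene expression. MDA-MB-231 is a human triple-negative breast cancer (TNBC) cell line, and ADR, also called doxorubicin, is an anthracycline that poisons topoisomerase II. The parent group comprised 3 libraries of parental cells with no selection named. The ADRr group comprised 3 libraries of ADR-resistant cells. By the study's methods, such cells had survived stepwise increases of ADR and were then expanded at high doses of it. Single clones were picked afterwards by limiting dilution. The medium given for MDA-MB-231 cells in general contained serum. Whether the 3 ADRr libraries came from 1 clone or from several, and whether ADR was present at harvest, is not given in the sources used here. The sample descriptions give all 3 the same derivative name, which they do not explain. Nothing in the labels says that libraries of a group came from separate cultures, so the p-values measure only the spread between these libraries, which may be technical. The series' design text also speaks of 3 time points that no sample label gives; the libraries of a group were taken as replicates, and if they were instead different times, each SD and p-value would include the change over time.

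Total counts per library ranged from 15983985 to 18272314, and the normalization factors (trimmed mean of M values, TMM) from 0.987 to 1.01. Of the markers of the line, mesenchymal VIM was at a mean of 8812 normalized counts in parent and 5981 in ADRr cells, MSN at 11181 and 12238 and CD44 at 14644 and 25428, and the hormone receptor genes ESR1 and PGR were at or near 0. ERBB2 was detected, at 2059 in parent and 869.5 in ADRr cells. Of these genes, VIM and ERBB2 were called lower in ADRr cells, CD44 was called higher and MSN was not called. Epithelial markers moved in both directions, with KRT8 (10577 to 2638), KRT18 (4413 to 2803) and CDH1 (252 to 121) called lower and EPCAM (215 to 461) called higher, and their part in the results was not tested. Of 9 markers of leukocytes, endothelium, fibroblasts and liver, COL1A1 (480.2 in parent and 312 in ADRr cells) and PECAM1 (7.61 and 8.8) had the highest means, those of PTPRC, CD53, LYZ, CDH5 and PDGFRA were at most 2.55, and DCN and ALB were at 0. In such bulk RNA, fewer cells that express a gene and less of its RNA per cell cannot be told apart.

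ATF4 is a basic leucine zipper transcription factor of the integrated stress response. Kinases that sense amino acid shortage, unfolded protein, viral RNA or heme deficiency phosphorylate the initiation factor eIF2, which slows most translation but favours that of ATF4 through its upstream open reading frames, so that much of its control acts on protein rather than on mRNA. ATF4 then binds, with C/EBP family partners, to C/EBP-ATF response elements near genes for amino acid transport and synthesis, tRNA charging, redox defence and cell death.

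To show where such an element can lie in these genes, the RefSeq promoter windows (GRCh38.p14, 250 bases before to 50 bases after each annotated start) were searched on both strands for the core motif TGATGNAA, which reads TTNCATCA on the opposite strand. Windows were given for 8 of the 10 genes, and PSPH and SHMT2 were not among them. A match was found in 2 of the 8, ASNS and CHAC1, and each is printed 5′ to 3′ on the strand of its gene with the match in capitals.
ASNS, chr7:97872458-97872487, minus strand: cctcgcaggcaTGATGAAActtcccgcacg
CHAC1, chr15:40953251-40953280, plus strand: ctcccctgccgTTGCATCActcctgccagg
The ASNS match lies 68 to 61 bases before an annotated start, and that of CHAC1, which is on the opposite strand of the gene, 209 to 202 bases before. Both matches fall inside the gene's span in GENCODE 29 and inside an exon of at least 1 annotated transcript. Of all 27305 genes with a window, 4.46% held the motif, and no match in a window says only that these letters are not in it.

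Across the 10 genes the median log2 fold change was 1.76, beside -0.01 over all tested genes. No gene of the set overlapped between the groups: in 9 of them every ADRr library lay above every parent library, as it did in 34.5% of all tested genes, and in PHGDH every ADRr library lay below, as it did in 34.7%. Together the 10 genes took 602, 636 and 624 CPM (counts relative to the library total) in parent libraries 1, 2 and 3, and 1479, 1503 and 1469 in ADRr libraries 1, 2 and 3. A gene was called where edgeR's quasi-likelihood test gave an adjusted p no higher than 0.05 and the groups differed 1.2-fold or more, up or down. Per library, the values that follow are normalized counts, that is, counts scaled to the mean TMM-adjusted library size, listed for replicates 1, 2 and 3.

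**Figure D1:**
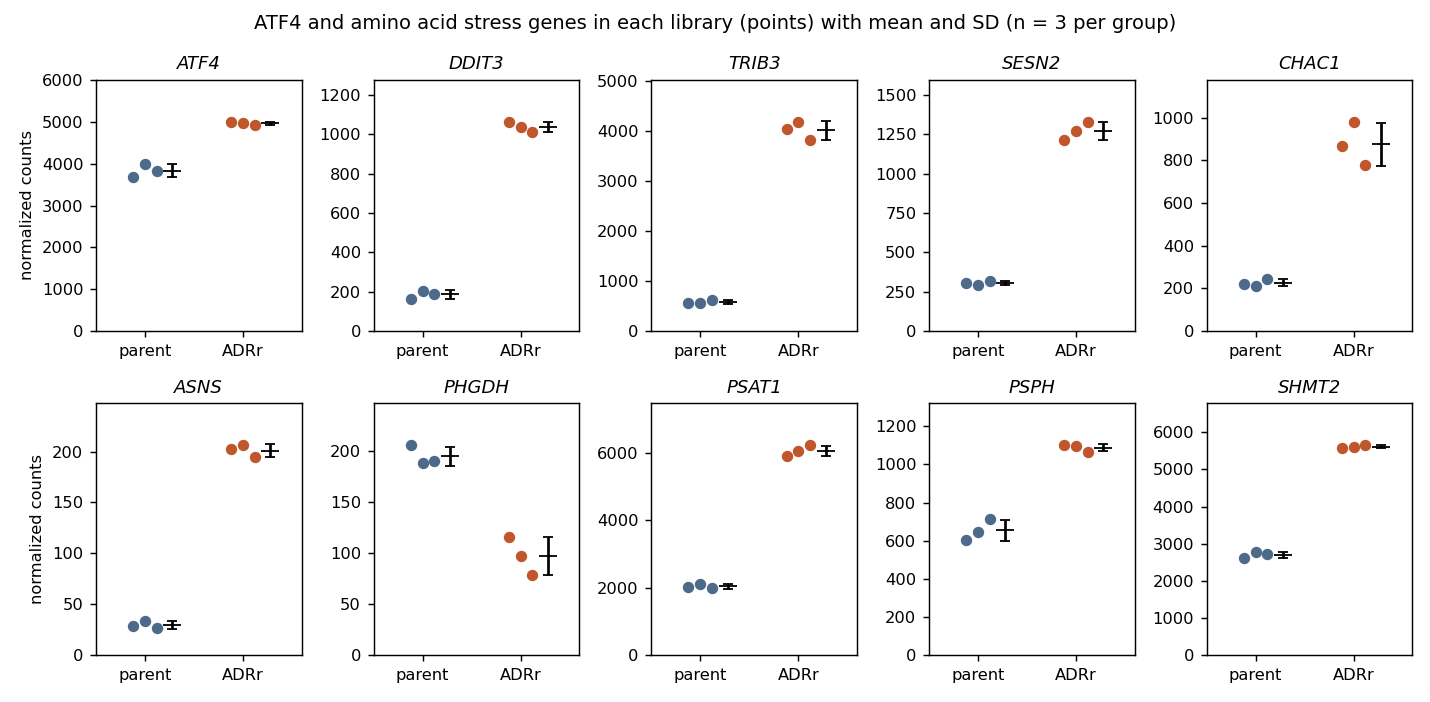
Normalized counts (vertical axes, each from 0) of the 10 genes in 3 parent and 3 ADRr libraries, with points for libraries and bars for the mean and SD. The 2 groups do not overlap in any panel, with ADRr libraries above parent libraries in 9 panels and below them in that of PHGDH.

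ATF4 (ENSG00000128272, chr22:39519695-39522685, plus strand) is the regulator of the set. Parent libraries held 3685, 3983 and 3829.7 normalized counts of ATF4 and ADRr libraries 5004, 4966 and 4933. The groups were separate, with means of 3833 ± 149 and 4967 ± 35.3 (SD, n = 3 each). ATF4 was higher in ADRr cells by 0.37 on the log2 scale (SE 0.049, 95% interval 0.27 to 0.48, edgeR adjusted p = 6.4e-07). The rise was small for this comparison, since 28.4% of all tested genes had a larger log2 fold change and the median absolute change was 0.46.

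DDIT3 (ENSG00000175197, chr12:57516588-57521737, minus strand) encodes CHOP, a C/EBP family factor that acts downstream of ATF4 and promotes cell death in prolonged stress. It was at 164, 207 and 189.9 normalized counts in parent libraries and at 1065, 1037 and 1011 in ADRr libraries. The lowest ADRr library lay far above the highest parent library. The mean rose from 187 ± 21.7 to 1038 ± 26.7 (SD, n = 3), a log2 fold change of 2.47 (SE 0.090, edgeR adjusted p = 1.9e-16). Relative to ATF4 in the same library, DDIT3 counts amounted to 4.44, 5.19 and 4.96% in parent and to 21.3, 20.9 and 20.5% in ADRr cells, a ratio of counts not scaled by length. In GENCODE 29, 39.6% of the exon bases of DDIT3 are shared with other genes, among them MARS and MBD6 on the opposite strand, and whether the counting used strand is not given in the sources used here. MARS was itself called higher, by 0.91 on the log2 scale, and MBD6 was not called (0.09, edgeR adjusted p = 0.31); the part of MARS reads in the DDIT3 value was not tested.

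TRIB3 (ENSG00000101255, chr20:362835-397559, plus strand) encodes a pseudokinase that is induced by ATF4 and CHOP and binds AKT and ATF4. Parent libraries had 559, 558 and 631 normalized counts of TRIB3 and ADRr libraries 4023, 4179.9 and 3809. The 3 ADRr libraries were alike and far above the parent libraries. With means of 583 ± 41.9 and 4004 ± 186 (SD, n = 3), TRIB3 had the largest log2 fold change of the set, 2.78 (SE 0.065, 95% interval 2.64 to 2.91, edgeR adjusted p = 8.8e-20). Only 299 of all tested genes had a larger absolute change.

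SESN2 (ENSG00000130766, chr1:28259527-28282491, plus strand) encodes sestrin 2, a leucine sensor that restrains mTORC1 when leucine is scarce. It was at 306, 291 and 321 normalized counts in parent libraries and at 1213, 1274 and 1329.9 in ADRr libraries. Both groups were tight, and SESN2 rose by 2.05 on the log2 scale (SE 0.077, means 306 ± 15.2 and 1272 ± 58.3, SD, n = 3, edgeR adjusted p = 3.1e-16). The gene is given 1 annotated transcript with 10 exons, and no exon base is shared with another gene.

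CHAC1 (ENSG00000128965, chr15:40952962-40956519, plus strand) encodes a gamma-glutamylcyclotransferase that degrades glutathione, and is the other gene with the response element core in its window. Its normalized counts were 221, 213 and 246 in parent and 865, 981 and 777 in ADRr libraries. ADRr replicate 2 was the highest and replicate 3 the lowest, so that CHAC1 had the widest relative spread among the 5 stress regulators and effectors in ADRr cells, with all 3 still above the parent libraries. The means were 227 ± 17.4 and 874 ± 102 (SD, n = 3), a log2 fold change of 1.94 (SE 0.098, edgeR adjusted p = 6.1e-14).

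ASNS (ENSG00000070669, chr7:97852118-97872542, minus strand) encodes asparagine synthetase, which makes asparagine from aspartate and glutamine and whose promoter is the textbook case of an amino acid response element. In parent libraries it was at 28.8, 33.5 and 26.3 normalized counts, from 27 to 31 reads as counted, and in ADRr libraries at 203, 206 and 194. Every ADRr library was several times above every parent library. ASNS rose by 2.77 on the log2 scale, from a mean of 29.5 ± 3.67 to 201 ± 6.12 (SD, n = 3, SE 0.17, 95% interval 2.41 to 3.12, edgeR adjusted p = 2.7e-12), with the widest interval of the set. In GENCODE 29, 44.6% of the exon bases of ASNS are shared, mostly with AC079781.5 on the same strand, so reads there could be left uncounted or split. That gene held 35 to 46 counts in parent and 17 to 38 in ADRr libraries and was not called (-0.61, edgeR adjusted p = 0.086).

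Serine is made from the glycolytic intermediate 3-phosphoglycerate by PHGDH, PSAT1 and PSPH in turn, and SHMT2 converts serine to glycine in mitochondria while passing a carbon unit to folate. In ADRr cells the first enzyme of this route moved against the others. PHGDH was lower by a factor of 2.00, whereas PSAT1 was 2.98-fold, SHMT2 2.08-fold and PSPH 1.66-fold higher.

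PHGDH (ENSG00000092621, chr1:119648411-119744226, plus strand) encodes phosphoglycerate dehydrogenase, the committed step. It was at 206, 188 and 190.9 normalized counts in parent libraries and at 116, 97.3 and 78.5 in ADRr libraries. The ADRr libraries were all below the parent libraries but spread widely among themselves. The mean fell by 1.00 on the log2 scale, from 195 ± 9.48 to 97.3 ± 18.8 (SD, n = 3, SE 0.15, 95% interval -1.31 to -0.70, edgeR adjusted p = 3.1e-06).

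PSAT1 (ENSG00000135069, chr9:78297143-78330093, plus strand), the phosphoserine aminotransferase, was at 2002, 2103 and 1989.9 normalized counts in parent and at 5914, 6052 and 6220.0 in ADRr libraries. PSAT1 had the most counts of all 10 genes in ADRr cells, with a mean of 6062 ± 153 against 2031 ± 62.2 (SD, n = 3) in parent cells. Its log2 fold change was 1.58 (SE 0.051, 95% interval 1.47 to 1.68, edgeR adjusted p = 2.6e-17).

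PSPH (ENSG00000146733, chr7:56011051-56051604, minus strand), the phosphatase that releases serine, was at 605, 646 and 714 normalized counts in parent and at 1100.1, 1095 and 1066 in ADRr libraries. Parent replicates differed more from each other than ADRr replicates did, and the groups stayed apart. PSPH rose by 0.73 on the log2 scale (SE 0.073, means 655 ± 55.0 and 1087 ± 18.5, SD, n = 3, edgeR adjusted p = 8.3e-09). Its unprocessed pseudogene PSPHP1 held 48 to 80 counts per library and was not called (-0.31, edgeR adjusted p = 0.26), so a small share of reads could have been exchanged between the copies.

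SHMT2 (ENSG00000182199, chr12:57229327-57234935, plus strand) was at 2620.0, 2774 and 2714 normalized counts in parent and at 5578, 5605 and 5650.3 in ADRr libraries. The ADRr libraries of SHMT2 differed by little, with means of 2702 ± 77.4 and 5611 ± 36.4 (SD, n = 3). SHMT2 rose by 1.05 on the log2 scale (SE 0.049, edgeR adjusted p = 1.7e-14). The pseudogenes named after ATF4, ASNS and PSAT1 held at most 4 counts in any library.

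Scaled by length, as FPKM, PSAT1 and PSPH mRNA lay further above PHGDH mRNA in ADRr than in parent cells. The divisor, PHGDH, was low in both groups, at 1.21 FPKM in parent and 0.605 in ADRr cells. Protein and enzyme activity were not measured in these data. The ratio of PSAT1 to PHGDH was 41.0, 47.1 and 43.9 in parent and 215, 262 and 334 in ADRr libraries. PSPH to PHGDH was 9.81, 11.4 and 12.5 in parent and 31.6, 37.5 and 45.3 in ADRr libraries. With the length of the principal transcript, a choice made after the values were seen, PSAT1 to PHGDH was lower, from 11.5 to 13.2 in parent and from 60.2 to 93.7 in ADRr libraries, since the length given to PHGDH is larger than that of its principal transcript. With either length all ADRr ratios exceeded all parent ratios, and the fall of PHGDH and the rise of the partner gene both enter each ratio.

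**Figure D2:**
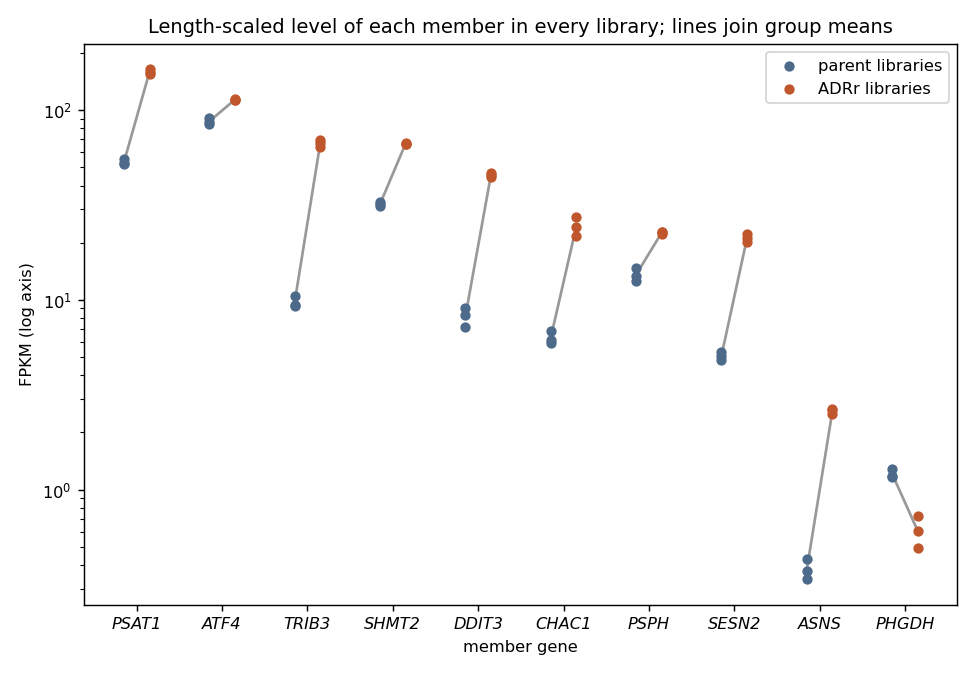
FPKM (log axis) of the 10 genes in each parent and ADRr library, ordered by the mean in ADRr cells, with lines joining the group means. PSAT1 moved from 53.1 to 158.9 and passed ATF4, and ASNS and PHGDH changed places at the low end. Reads in shared exon bases of ASNS could be left uncounted, so its place is uncertain.

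The order of levels between the genes was read from FPKM, which divides counts by gene length. In parent cells ATF4 was highest, at 87.1 ± 3.23 FPKM (SD, n = 3), followed by PSAT1 at 53.1 ± 1.61 and SHMT2 at 31.9 ± 0.846. PSPH (13.6 ± 1.10), TRIB3 (9.70 ± 0.676), DDIT3 (8.17 ± 0.931), CHAC1 (6.30 ± 0.471) and SESN2 (5.07 ± 0.247) came next. PHGDH (1.21 ± 0.0621) and ASNS (0.379 ± 0.0473) were lowest, and no neighbours in this order overlapped over their 3 libraries. In ADRr cells PSAT1 was highest, at 158.9 ± 4.25 FPKM, above ATF4 at 113 ± 0.750. TRIB3 (66.9 ± 2.93) and SHMT2 (66.5 ± 0.557) overlapped, as did CHAC1 (24.4 ± 2.77) and PSPH (22.6 ± 0.342). DDIT3 stood between these pairs at 45.5 ± 1.13. SESN2 followed at 21.1 ± 0.995 and overlapped CHAC1 but not PSPH. ASNS (2.59 ± 0.0720) now lay above PHGDH (0.605 ± 0.117).

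These lengths count every exon base of every transcript, which weighs on genes with many isoforms: PHGDH is given 9217 bases, against 2585 in its principal transcript, and ASNS 4455 against 2356. With the length of the principal transcript, a choice made after the values were seen, the parent order began with ATF4 (109.7 CPM per kilobase of transcript), SHMT2 (61.5) and PSAT1 (53.6). PSAT1 (163), ATF4 (145) and SHMT2 (130.1) then led in ADRr cells. PHGDH (4.36 and 2.22) and ASNS (0.725 and 5.02) stayed lowest in both groups and again changed places. Because 44.6% of the exon bases of ASNS are shared, reads there could be left uncounted. Its level may thus be understated, and its place is uncertain with either length.

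To see whether a gene moved with its surroundings on the chromosome, each was set beside its 50 nearest tested genes. The neighbour medians were close to 0, from -0.22 around CHAC1 to 0.15 around PHGDH. ASNS, DDIT3, TRIB3 and CHAC1 each ranked 2nd by log2 fold change among the 51 genes, SHMT2 ranked 3rd, SESN2 4th and PSAT1 6th. PSPH ranked 13th and ATF4 15th, while PHGDH was 4th from the lowest. Around CHAC1, 23 of the 50 neighbours were called lower and 11 higher, and CHAC1 exceeded their median by 2.16. DDIT3 and SHMT2 lie close to each other on chromosome 12 and share most of their neighbours.

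**Figure D3:**
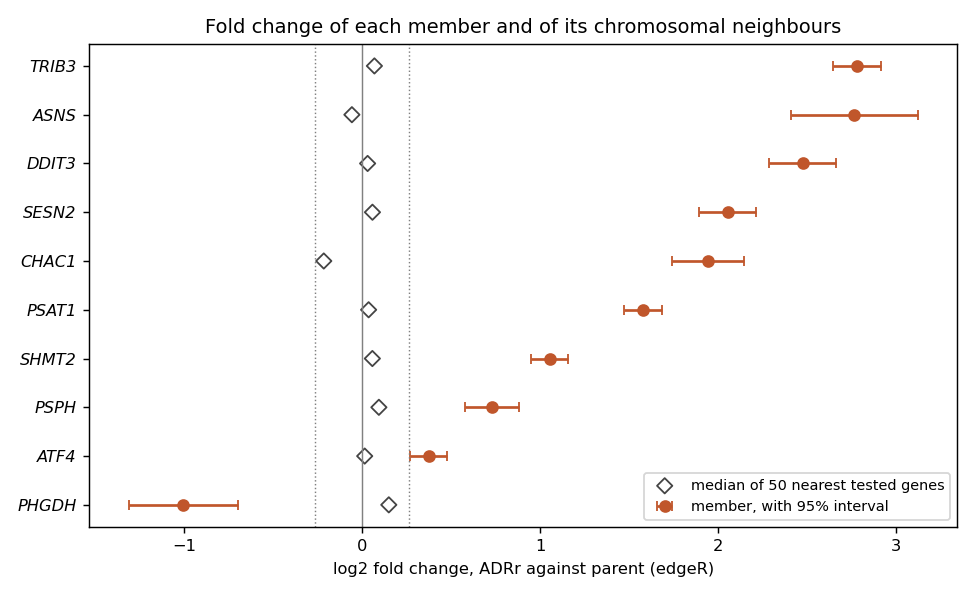
Log2 fold change of each of the 10 genes in ADRr against parent cells (points, with 95% intervals) and the median of its 50 nearest tested genes (diamonds). Dotted lines mark a 1.2-fold change in either direction. The neighbour medians lie between -0.22 and 0.15, within the dotted lines, PHGDH lies to their left and the other 9 genes to their right, up to 2.78 for TRIB3.

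The wider pathway was read from 8 gene lists drawn up from general knowledge of it, with earlier results of these data known. Their counts are therefore a description and not independent support. Over all tested genes, 29.2% were called higher and 29.6% lower, and each list below is to be read beside these shares. Upstream of ATF4, the eIF2 kinases, subunits, exchange factor and phosphatase regulators were mixed. Of 17 tested genes 7 were higher, 3 lower and 7 not called, with a median log2 fold change of -0.01. PPP1R15A, which encodes the stress-induced eIF2 phosphatase subunit GADD34, itself a target of the pathway, rose by 2.23 (3394 to 15937 normalized counts, edgeR adjusted p = 1.5e-20). IMPACT, an inhibitor of GCN2 activation, rose by 0.80 and the exchange factor subunit EIF2B2 by 0.70. Among the 4 kinases, EIF2AK1, the heme-regulated kinase HRI, fell by 1.15 (3148 to 1416, edgeR adjusted p = 8.4e-14). EIF2AK4, the amino acid sensor GCN2, rose by 0.32 (edgeR adjusted p = 2.6e-05), EIF2AK3 (PERK) was not called at -0.15 and EIF2AK2 (PKR) was below the fold threshold at -0.17. The exchange factor subunit EIF2B5 fell by 0.46.

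Of 7 partner and related factors of ATF4, 5 were higher and 1 lower, a share of 71.4% higher, with a median log2 fold change of 0.78. NUPR1, a small stress-induced chromatin protein, rose by 2.98 (109 to 863 normalized counts), ATF3 by 2.12 (242 to 1052) and CEBPG, a dimer partner of ATF4, by 2.02 (846 to 3433). CEBPD fell by 0.90, and ATF5 was not called (-0.19, edgeR adjusted p = 0.088). The 3 factors that rose most thus exceeded the 0.37 of ATF4 mRNA.

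Amino acid transporters were higher in 13 of 15, a share of 86.7%, with a median log2 fold change of 0.80. SLC1A4, a carrier of alanine, serine and cysteine, rose by 2.14 (329 to 1451 normalized counts), the glycine transporter SLC6A9 by 1.83 (214 to 760.4) and the cystine-glutamate exchanger SLC7A11 by 1.52 (894 to 2563). The glutamate and aspartate transporter SLC1A3 went the other way and fell by 1.89 (780.3 to 210.2, edgeR adjusted p = 1.7e-14). SLC7A6 was not called (-0.12).

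Cytosolic aminoacyl-tRNA synthetases, which charge tRNAs with their amino acids, were higher in 14 of 20, lower in 2 and not called in 4, with a median of 0.83. WARS rose by 1.78 (1932 to 6641 normalized counts), AARS by 1.64 (edgeR adjusted p = 4.2e-18) and SARS by 1.51 (3447 to 9818). QARS, for glutamine, fell by 1.75 (edgeR adjusted p = 5.7e-17). RARS, for arginine, fell by 0.26, a value at the fold threshold.

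**Figure D4:**
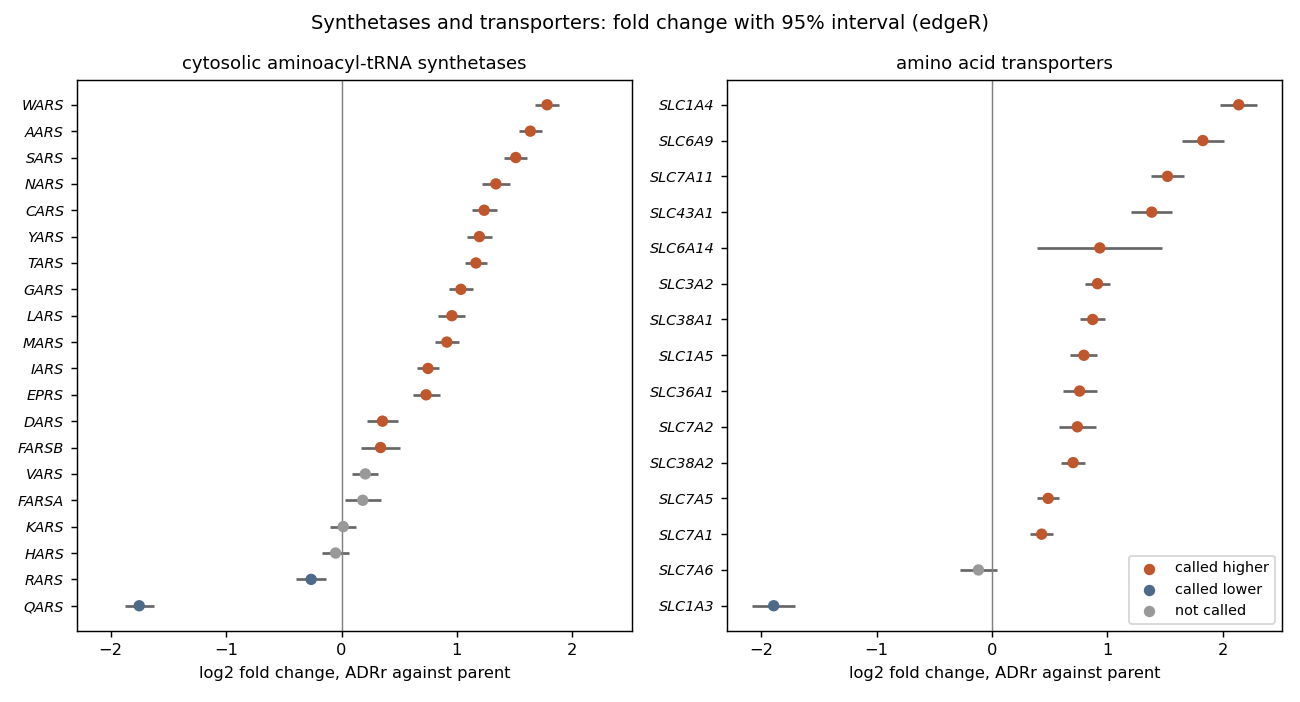
Log2 fold changes in ADRr against parent cells, with 95% intervals, of 20 cytosolic aminoacyl-tRNA synthetases (left) and 15 amino acid transporters (right), coloured by call. Most genes lie above 0, while QARS at -1.75 and SLC1A3 at -1.89 stand far below the rest of their lists.

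The enzymes of folate-bound carbon and glycine metabolism were divided, with 6 of 13 tested genes higher, 4 lower and a median of 0.24. Mitochondrial MTHFD2, which acts after SHMT2, rose from a mean of 879 to 2020.5 normalized counts (edgeR adjusted p = 1.3e-13), the folate dehydrogenase ALDH1L1 by 1.08 and mitochondrial MTHFD1L by 0.68. SFXN1, the mitochondrial serine carrier, fell by 0.97 (2058 to 1052), and the cytosolic counterparts SHMT1 and MTHFD1 fell by 0.71 and 0.37. Mitochondrial MTHFD2L was also called lower, at -0.33 (edgeR adjusted p = 0.016), and ALDH1L2 was not called (0.15). The list thus did not split cleanly by compartment, since cytosolic ALDH1L1 rose. GLDC, AMT and SLC25A32 were too low to be tested.

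Other enzymes of amino acid synthesis were higher in 9 of 15 and lower in 3, with a median log2 fold change of 0.28. CTH, which makes cysteine from cystathionine, rose by 2.55 (259 to 1518 normalized counts, edgeR adjusted p = 6.4e-18), and the arginine synthesis enzymes ASS1 and ASL rose by 1.44 and 1.22. BCAT2 fell by 0.38. CBS was at 0 counts in all libraries; GRCh38 holds a near-identical copy of that gene, so its level is uncertain.

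Stress effectors listed as downstream of ATF4 were higher in 11 of 13 tested genes, with a median log2 fold change of 0.92. The part of ATF4 in these changes was not tested. The other 2 were not called: VLDLR at -0.16 (edgeR adjusted p = 0.15) and NDRG1 at 0.25, below the fold threshold. GDF15, a secreted stress cytokine, rose by 3.99 (314 to 5018 normalized counts), VEGFA by 2.42 (edgeR adjusted p = 7.8e-21) and the autophagy gene MAP1LC3B by 1.77 (1322 to 4519). FGF21 was too low to be tested.

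**Figure D5:**
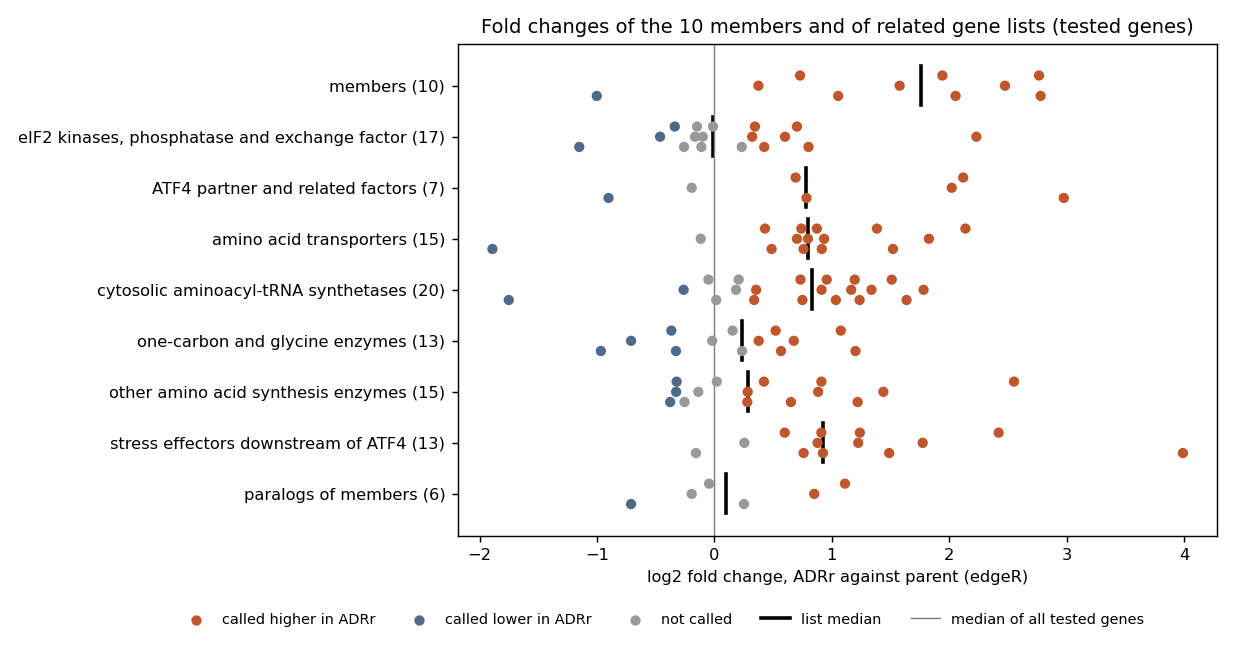
Log2 fold change in ADRr against parent cells of every tested gene of the set and of 8 related lists (number of tested genes in parentheses), coloured by call, with the list median as a black bar. The 10 genes have the highest median, 1.76, and the eIF2 list and the paralogs lie near the median of all tested genes, -0.01.

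Close relatives of the 10 genes did not move as a group. TRIB1 rose by 1.11 (169.9 to 367 normalized counts, edgeR adjusted p = 5.2e-09) and CHAC2 by 0.85 (154 to 277). TRIB2 was below the fold threshold at 0.25, SESN1 was not called (-0.05, edgeR adjusted p = 0.80) and SESN3 was too low to be tested. SHMT1 fell while SHMT2 rose. The difference between relatives was not tested.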

How the data were processed

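Poly(A) RNA from 3 parent and 3 ADRr libraries was sequenced as paired-end reads. Per the labels, the authors mapped reads with HISAT2 2.0.5 to GRCh38 and counted them per gene with featureCounts 1.5.0-p3; fastp and DESeq2 1.20.0 are also listed, and the strandedness and annotation are not given in the sources used here. The deposited tables hold raw counts and, calculated by the authors, FPKM values. All 58735 genes had the same coordinates as in GENCODE 29. Tests were made with edgeR 4.0.16 (R 4.3.3): after filterByExpr and TMM scaling, 15242 genes entered the quasi-likelihood test over all 6 libraries without covariates, with Benjamini-Hochberg adjustment. A gene was called where the adjusted p did not exceed 0.05 and the change was 1.2-fold or more. FPKM values were used for levels between genes and, with a pseudocount of 1, in limma-trend (limma 3.58.1) as an alternative, as was DESeq2 1.42.0. In total 18 alternatives were run, and the fitting code was tested on simulated data. Named genes are all 10 of the set, their relatives and, per list, the 3 largest called increases and 2 largest called decreases, of which 1 gene is not reported here; further genes named were chosen after their values were seen. The 10 genes and the lists were chosen with earlier results of these data known.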

Additional observations from a re-analysis of the deposited data

How the results depend on the processing

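All 10 genes kept their direction under the 18 alternatives, which included DESeq2, other size factors, other filters, limma on log2 FPKM and leaving out each library. Each also stayed called, except that a threshold of 1.2 on the log2 scale removed ATF4, PHGDH, PSPH and SHMT2. That stricter threshold left 1114 genes higher and 972 lower, with 6 of the 10 genes higher and 0 lower and 23 of the 110 pathway list genes higher and 2 lower; a test against the 1.2-fold change itself (glmTreat) left 59 pathway list genes higher and 8 lower, against 67 and 14 in the main test, and 3591 genes higher and 3674 lower in all, against 4451 and 4507. On log2(FPKM + 1) the median of the 10 genes was 1.47, with or without a filter on low values, since the pseudocount shrinks low genes such as ASNS (1.38). PHGDH ranged from -1.14 to -0.46 and ATF4 from 0.34 to 0.40. With a replicate block the counts were 4406 genes higher and 4464 lower, 9 and 1 of the 10 genes and 67 and 13 pathway list genes, and no call among the 10 changed. Libraries with the same number did not deviate together (r of 0.0074, -0.021 and -0.046 over genes), so the numbers were not taken as pairs. RARS lost its call in several alternatives. Low counts limit ASNS most, with 27 to 31 reads per parent library, and reads in its shared exon bases could have been left uncounted.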

Other observations

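Mitochondrial aminoacyl-tRNA synthetases, a list drawn up after the values were seen, were mixed. Of 17 tested genes, 4 were higher in ADRr cells, 7 lower and 6 not called, with a median log2 fold change of -0.03, beside 29.2% higher and 29.6% lower over all tested genes. Their values ranged from -1.17 for LARS2 to 0.98 for PARS2. AARS2 fell by 0.93, while cytosolic AARS rose by 1.64. The difference between the lists was not tested.

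Some of the list genes that fell were also set beside their 50 nearest tested genes, a choice made after the values were seen. List genes that rose were not set beside their neighbours, so rises and falls cannot be compared in this way. QARS (chr3:49095932-49105135), at -1.75, lay in a stretch where 35 of the 50 neighbours were called lower and 2 higher, with a median of -0.69, against 29.6% lower among all tested genes. The part of this stretch in the value of QARS was not tested. SLC1A3 (chr5:36606355-36688334), at -1.89, lay among neighbours with a median of 0.14, of which 4 were called lower. Neighbour medians were -0.13 around EIF2AK1, 0.17 around SFXN1, 0.19 around SHMT1 and 0.09 around both CEBPD and RARS.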
